A study of Mus musculus with 49 samples.

Results

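The mouse carboxylesterases followed here are 10 rows of the count table: Ces1c, Ces1d, Ces1e, Ces1f, Ces1g, Ces2a, Ces2c, Ces2e, Ces3a and Ces3b. They were found by matching Ensembl identifiers to gene symbols, and all 10 members were present among the 46078 identifiers of the table. The table gives the RNA of 49 libraries in 16 conditions that follow mouse hepatocytes into a dedifferentiated state and from there into hepatocyte-like or intestinal cultures. The 5 Ces1 and 2 Ces3 genes are called liver-type and the 3 Ces2 genes intestine-type, a division taken from general knowledge of the subfamilies and not from these values.

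All cells came from wild-type C57BL/6J mice. Freshly isolated hepatocytes (FH, n = 3) came from the livers of 10-week-old males by collagenase digestion, and hepatocytes plated in monolayer with EGF were sampled at 3 h, 1, 2, 4, 7 and 14 days (n = 3 each). Hepatocytes kept for 7 days with 0.3 µM verteporfin, an inhibitor of Yap-driven transcription, or with its solvent DMSO had 2 libraries each. Dedifferentiated hepatocytes that had been passaged in the same monolayer medium are called dediHeps (n = 5). dediHep aggregates (n = 3) were grown in low-attachment wells to return cells to a hepatocyte state. dediHep-SOs (n = 3) are spherical organoids grown in Matrigel with Wnt3a, CHIR99021, EGF, Noggin and R-spondin1, and dediHep-BOs (n = 3) are budding organoids from dediHeps that carried a Cdx2 retrovirus, grown without Wnt3a and CHIR99021 in the last step. FIPC-SOs (n = 3) are spherical organoids of progenitor cells from fetal intestine at E13.5, and ISC-BOs (n = 4) are budding organoids from small intestinal crypts of 10-week-old mice. CLiPs (n = 3) are hepatocyte-derived progenitors made with Y-27632, A-83-01 and CHIR99021. Only dediHep-BOs carry the Cdx2 virus, which therefore cannot be told apart from the budding form in that lineage, and FIPC-SOs differ from ISC-BOs in age. Medium differs as well. The paper describes Wnt3a and CHIR99021 for spheres of fetal progenitors, while crypts were grown without them. Shape can thus not be told apart from medium in either lineage.

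Carboxylesterases are serine hydrolases that cut ester and amide bonds, most of them in the lumen of the endoplasmic reticulum, where a short signal at the end of the protein holds them. They activate or clear many drugs and pesticides and also release fatty acids from stored lipid. In mouse, Ces1 genes serve mainly the liver, where Ces1d (triacylglycerol hydrolase) and Ces1g act on lipid for lipoproteins, Ces1e is egasyn, the protein that holds β-glucuronidase in the endoplasmic reticulum, and Ces1c is the esterase secreted into plasma. Ces2 enzymes are known from both small intestine and liver, and Ces3a and Ces3b from liver.

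The family forms blocks on 1 chromosome. In GENCODE M21 on GRCm38, the build named in the submitters' processing notes, the 5 Ces1 members lie on the minus strand of chromosome 8 between 93099015 and 93337308, the 3 Ces2 members on the plus strand between 104734003 and 104934672, and the 2 Ces3 members next to them between 105048601 and 105093929. Their transcripts are alike, with an identity of 95.4% between Ces3a and Ces3b and of 81.4% to 81.9% among the Ces2 members. The assay reads 3′ ends, so the last 500 bases of each transcript matter for telling genes apart. Of the 451 stretches of 50 bases there, Ces2c shared 35.7% with other family transcripts, nearly all with the pseudogene Ces2d-ps, Ces3a shared 31.3% with Ces3b, and Ces1c shared 25.1% with Ces1b. Ces1e, Ces1g and Ces2e shared none, Ces2a shared 8.2%, Ces3b 5.99%, and Ces1d and Ces1f under 3% by the same count. Values of Ces2c, Ces3a and Ces1c are thus uncertain to the extent that reads could be split with these copies.

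RefSeq promoter entries on GRCm38.p6 were found for 7 of the 10 members, all but Ces1d, Ces1f and Ces3a. The 100 bases before the start are printed 5′ to 3′ for the 3 Ces2 members, which were called higher together in dediHep-BOs, and for Ces1c and Ces3b as examples of the liver-type genes. Capitals mark the letters GAACTTTNNCCC in the Ces2 genes, TTTATG (read by CDX factors) in Ces1c, and GTTAAT (part of an HNF1 site) and TATAAA (the TATA box) in Ces3b.
Ces2a, chr8:104733903-104734002, plus strand: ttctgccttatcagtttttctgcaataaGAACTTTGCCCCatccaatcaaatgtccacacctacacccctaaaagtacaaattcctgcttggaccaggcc
Ces2c, chr8:104846968-104847067, plus strand: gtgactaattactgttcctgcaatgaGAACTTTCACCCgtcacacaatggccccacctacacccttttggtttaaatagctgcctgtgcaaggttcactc
Ces2e, chr8:104926160-104926259, plus strand: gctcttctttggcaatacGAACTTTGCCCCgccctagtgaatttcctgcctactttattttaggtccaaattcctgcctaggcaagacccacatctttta
Ces1c, chr8:93131284-93131383, minus strand: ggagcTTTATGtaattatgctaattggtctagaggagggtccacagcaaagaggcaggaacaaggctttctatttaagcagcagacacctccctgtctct
Ces3b, chr8:105083655-105083754, plus strand: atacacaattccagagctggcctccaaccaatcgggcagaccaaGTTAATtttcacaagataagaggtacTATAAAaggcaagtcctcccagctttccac

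The shared Ces2 letters, which start with 1 of the 2 longest stretches (7 bases) common to the 3 sequences and hold the next 5 bases, were noticed here and then counted on both strands of the 250 bases before the start in all 32851 promoter entries, of which 25, or 0.0761%, hold them. The other motifs were common or absent: TATAAA was in 12.4% of the entries, TTTATG in 10.8%, GTTAAT in 6.43% and AGGTCANAGGTCA, a direct repeat read by nuclear receptors, in 0.0335% and in none of the 7. Only these exact letters were searched. Looser forms of a site, also within the shared Ces2 letters, were not looked for, so absence of nuclear receptor sites cannot be read from this. The 3 Ces2 promoters were 66.8% to 69.9% identical to each other over at least 214 aligned bases, and a match is a description of letters only. The exact letters TTTATG were in the entries of Ces1c, Ces1e and Ces1g and in no Ces2 entry. Other forms of a CDX site were not searched, so their absence from the Ces2 genes cannot be read from this.

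Levels are CPM (counts scaled to a common library size) of unique molecular identifiers (UMIs), normalised with TMM factors over all 49 libraries, with the mean ± SD between libraries. CEL-Seq2 counts the 3′ end of a molecule, so CPM of different genes can be set side by side without a length. The libraries held 861047 to 3872936 counts (median 1976760), and the 3 counts that a count of 0 allows correspond to 0.775 to 3.48 CPM. A gene was called when edgeR's quasi-likelihood test gave a Benjamini-Hochberg adjusted p under 0.1 and the log2 fold change was beyond 2 in either direction. As these are bulk samples, fewer cells of a type and less RNA per cell cannot be told apart. The sum of 10 hepatocyte markers was 23011 to 30277 CPM in FH, 328 to 478 in FIPC-SOs and 1463 to 1944 in ISC-BOs. As ISC-BOs come from crypts, this sum is not a measure of hepatocytes alone. The sum of 10 markers of intestinal epithelium was 3184 to 4642 in both BO groups against 231 to 331 in FH. FH libraries also held endothelial markers at 183 to 317 CPM, macrophage markers at 60.9 to 218 and stellate markers at 79.5 to 211, sums that were lower at 3 h (46.4 to 107, 3.31 to 13.9 and 29.3 to 38.3). Cholangiocyte markers, some of which other epithelia also express, stood at 17.8 to 106 CPM in FH and 2494 to 3206 in dediHep-SOs.

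Across the 16 conditions the members differed in where else than in hepatocytes they were found. In FH, Ces2e was highest at 2851 ± 914 CPM (n = 3), followed by Ces3a at 2315 ± 748, Ces1c at 2223 ± 364 and Ces3b at 1402 ± 548. Ces1d, Ces2a, Ces1g, Ces1f, Ces1e and Ces2c lay between 153 and 361 CPM. For 9 of the 10 members the highest mean was in FH or at 3 h. The exception was Ces2c, whose highest mean, 394 ± 41.5 CPM, was in dediHep-BOs, with the libraries at 3 h (239.5, 568 and 340.2) around it. With the correction for the limited number of UMIs given below, Ces2e also had its highest mean elsewhere, in ISC-BOs, which leaves 8 of the 10. Ces2e had a count in each of the 49 libraries, whereas Ces3b had one in 21, Ces1e in 22 and Ces1f in 24.

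**Figure D1:**
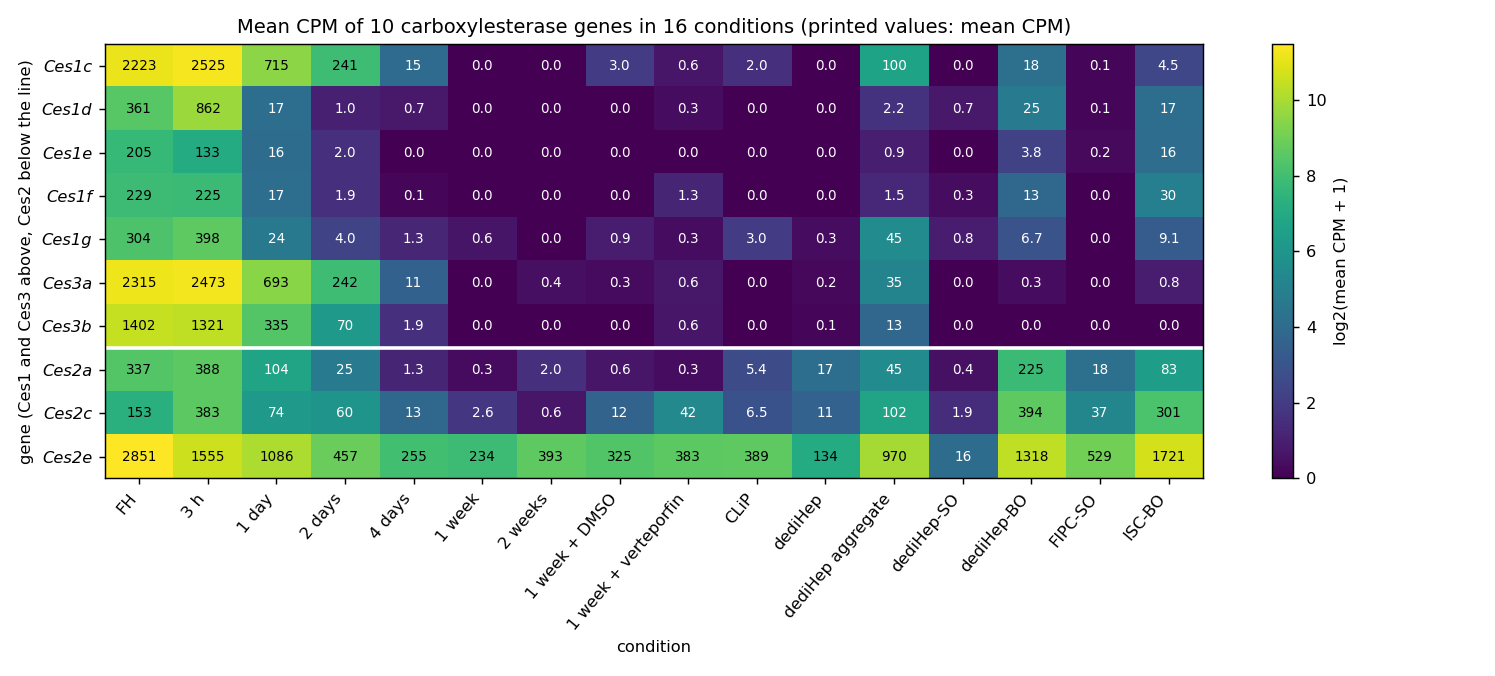
Mean CPM (color, log2 of mean CPM + 1; printed numbers, mean CPM, with 0.0 for any mean under 0.05) of the 10 carboxylesterase genes in rows, in 16 conditions in columns, n = 2 to 5 libraries each. The Ces1 and Ces3 rows are bright in FH and at 3 h, and the Ces2e row stays above 100 CPM in 15 conditions, with 15.7 CPM in dediHep-SOs.

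Ces2e ranked from 2851 ± 914 CPM in FH and 1721 ± 192 in ISC-BOs down to 134 ± 112 in dediHeps and 15.7 ± 9.40 in dediHep-SOs. Most neighbours in this order overlapped in their libraries. The breaks without overlap lay between hepatocytes at 3 h (1459 to 1743 CPM) and dediHep-BOs (1239.7 to 1375), between dediHep-BOs and 1 day (935 to 1180.0), and between dediHeps (38 to 328) and dediHep-SOs (7.39 to 25.9). A 6-base UMI allows at most 4096 counts per gene and library, and Ces2e came near it in ISC-BOs with 3682 to 3940 counts. A correction for UMIs drawn more than once would multiply the Ces2e counts by 2.55 to 3.40 there, by 1.66 to 1.88 in dediHep-BOs and by 1.27 to 1.71 in FH. The Ces2e level in budding organoids is thus a low reading. With that correction ISC-BOs ranked first at 4187 ± 574 CPM and FH next at 3329 ± 1360, with overlapping libraries, and dediHep-BOs (1880.1 to 2221) lay above 3 h (1136 to 1493) without overlap, the reverse of the order before it. The breaks between dediHep-BOs and 1 day and between dediHeps and dediHep-SOs remained.

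The share of Ces2 in the sum of the 10 genes moved from 31.8% ± 3.76 in FH and 22.7% ± 1.43 at 3 h to 48.8% ± 3.52 at 2 days, 88.3% ± 5.68 at 4 days and at least 98.5% in each of the hepatocyte and dediHep libraries from 1 week on in monolayer. By the means, Ces2 exceeded Ces1 and Ces3 together in 12 of the 16 conditions, and the remaining 4 were FH, 3 h, 1 day and 2 days. The change of share came with falling sums. In FH the Ces1 and Ces3 sum was 7039 ± 688 CPM and the Ces2 sum 3340.1 ± 862, while in dediHeps they were 0.631 ± 0.766 and 162 ± 116. Aggregates regained both, with 199 ± 160 CPM of Ces1 and Ces3 and 1117 ± 335 of Ces2. In dediHep-BOs and ISC-BOs the Ces1 and Ces3 sums were 66.0 ± 29.9 and 77.0 ± 40.4 CPM, and the Ces2 sums 1937 ± 219.9 and 2105 ± 258, with overlapping libraries in both measures. With counts corrected for UMIs drawn more than once (described above for Ces2e) the Ces2 sums were 2595 ± 307 (2297 to 2910) and 4542 ± 589 (3665 to 4887) CPM, higher in ISC-BOs and without overlap.

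**Figure D2:**
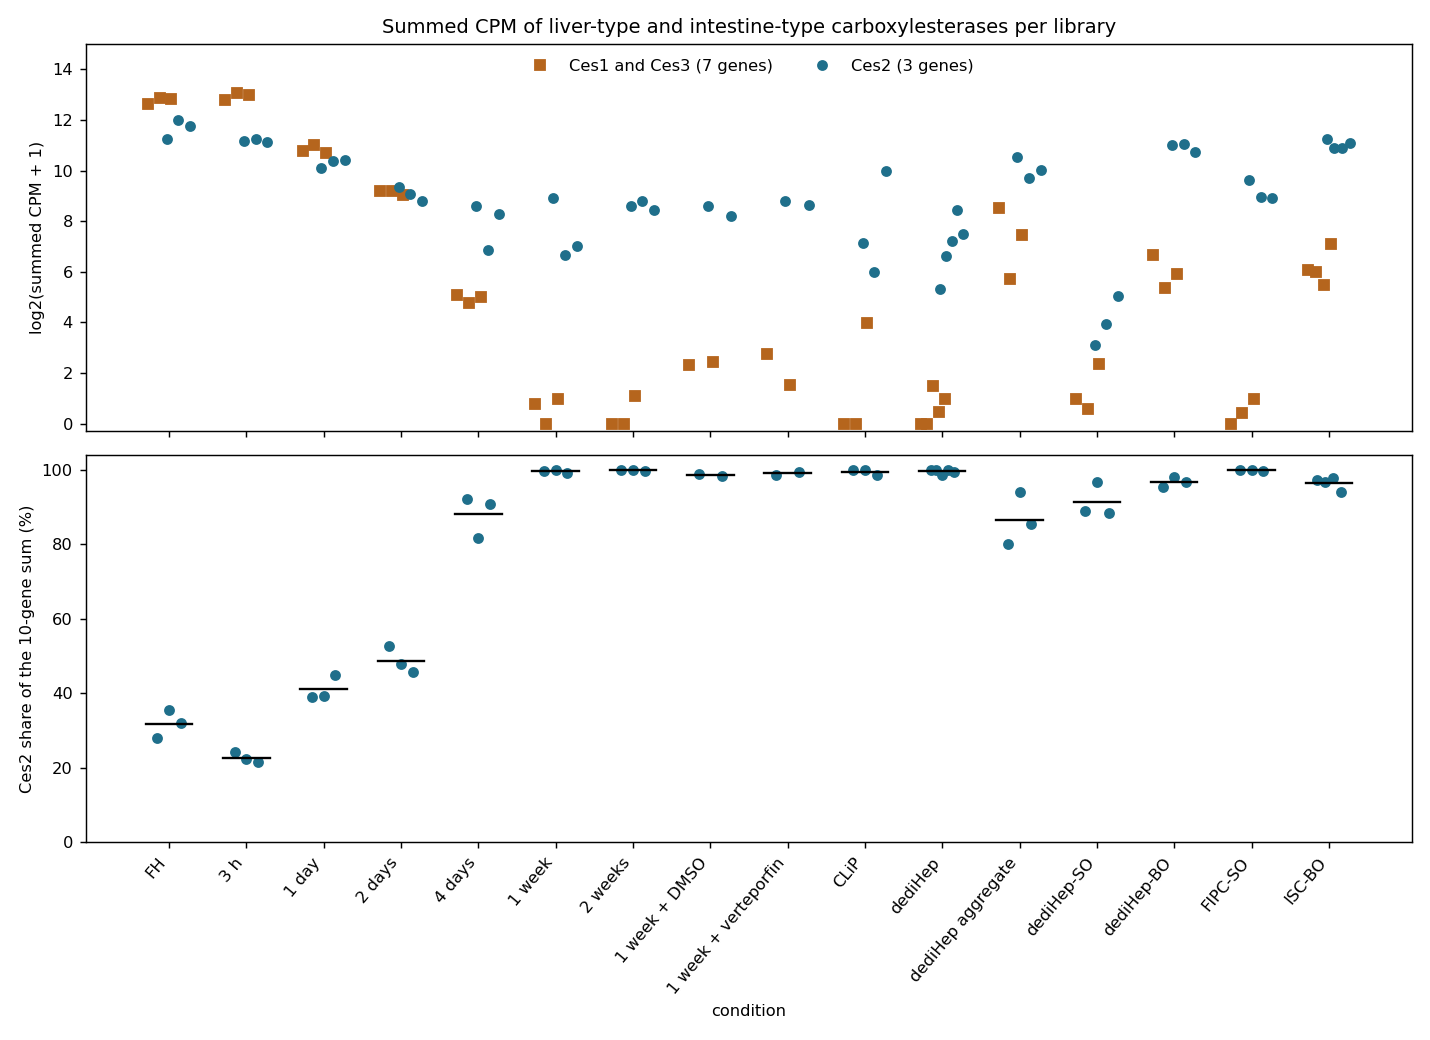
Upper panel, log2 of summed CPM + 1 of the 7 Ces1 and Ces3 genes (squares) and the 3 Ces2 genes (circles), and lower panel, the percentage of the 10-gene sum that is Ces2, in each library (points; bars, means) of 16 conditions. Ces2 makes up 31.8% of the sum in FH and 96.7% in dediHep-BOs.

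The next comparisons ask when hepatocytes lost each gene after plating. All comparisons with FH share its 3 libraries, and all with dediHeps share the same 5. At 3 h no member was called of 10 tested, where 6.91% of all 12443 genes were, and the median change of the members was 0.12 on the log2 scale (all genes, -0.07). Ces2c stood at 239.5, 568 and 340.2 CPM against 262, 72.5 and 124 in FH, a log2 change of 1.31 ± 0.56 (SE, adjusted p = 0.133). Ces1d was at 671, 818 and 1097 CPM against 795, 178 and 109 in FH, and the first FH library alone reached the level of the cultures (log2 change 1.25 ± 0.63, adjusted p = 0.205). Without that library Ces1d was called higher, at 2.56 with an adjusted p of 0.00793. Of the 10 members 1, Ces2c, had an unadjusted p under 0.05, and DESeq2 called none.

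After 1 day 5 members were called lower and none higher, beside 17.4% of all genes called in either direction and 10.9% called lower. The 4 Ces1 genes that were low to start with fell most. Ces1f went from 217, 271 and 200.3 CPM in FH to 13.4, 23.2 and 14.2, a log2 change of -3.84 ± 0.40 (adjusted p = 8.08e-07). The log2 changes were -4.50 for Ces1d, -3.78 for Ces1e and -3.78 for Ces1g, which acts in hepatic lipid export, and in each the highest library at 1 day lay below the lowest in FH. Ces3b was the fifth, with a log2 change of -2.16, and it was not called without FH replicate 3 (-1.80) or with library totals alone as the scale (-1.48). Ces1c, at 616, 978 and 552 CPM against 2558, 2275 and 1836 in FH, missed the fold with a change of -1.72 ± 0.28 (adjusted p = 0.000113), as did Ces3a (-1.84), Ces2a (-1.78) and Ces2e (-1.49), and only Ces2c had an adjusted p over 0.1 (-1.13, 0.134). The median over the 7 liver-type members was -3.78 and over the 3 Ces2 members -1.49, with -0.03 over all genes.

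At 2 days 9 members were called lower (all genes called, 21.3%, and called lower, 12.1%). Ces1d, Ces1e and Ces1f were down to at most 4.13 CPM in any library, and Ces1c (217, 268 and 239 CPM) and Ces3a (252, 259.7 and 216) still stood above 200 CPM. Ces2c was the one member not called, at 79.7, 28.3 and 72 CPM (log2 change -1.42 ± 0.57, adjusted p = 0.0544). Ces2e (545, 477 and 348 CPM) fell by 2.73 on the log2 scale, and scaled by library totals alone the change was -1.91, under the fold. With the UMI correction the mean Ces2 sum of 514 CPM at 2 days passed the Ces1 and Ces3 sum of 498, so that by the means only the first 3 times kept a liver-type majority. The libraries at 2 days lay on either side of an even share. Ces2 made up 46.5% to 55.2% with the correction and 45.9% to 52.7% without.

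From 4 days all 10 members were called lower, beside 23.8% of all genes called at 4 days, 25.9% at 1 week and 29.5% at 2 weeks, of which 12.4%, 12.8% and 15.3% of all genes were lower. From 2 days on, members with few or no counts passed the filter on low counts through other groups of the fit. For these a call could only be lower. Ces1c was at 12.6, 13.2 and 19.2 CPM at 4 days and had no count at 1 and 2 weeks, which makes it at least 5807-fold lower at 1 week than in FH (3 counts over the group). Ces3a, Ces3b, Ces1d, Ces1e and Ces1f also had no count at 1 week, with bounds of at least 6079-fold, 3783-fold, 942-fold, 523-fold and 596-fold lower. Hepatocytes kept for 7 days with DMSO had 5 counts of Ces1c in each library (3.29 and 2.80 CPM). The bound of Ces1c thus covers the untreated libraries only. At 2 weeks the 6 genes without a count were the 5 Ces1 genes and Ces3b, and Ces3a had 1 count. The fitted fold of a gene with a group at 0 depends on the small count added by the fit, and with such genes at their bounds the median of the members was -7.95 at 4 days, -9.55 at 1 week and -8.88 at 2 weeks.

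Within the Ces2 genes the loss was uneven. Ces2a fell to 0, 0.499 and 0.326 CPM at 1 week, with 2 counts in all against 861 in FH, 1337-fold lower with a counting interval of 369-fold to 11058-fold. Ces2c was at 0, 2.49 and 5.22 CPM at 1 week (7.24 and 16.2 with DMSO for 7 days) and at 1.79, 0 and 0 at 2 weeks. Ces2e in contrast stood at 371, 104 and 290.3 CPM at 4 days, 477, 98.7 and 125 at 1 week and 389.6, 442 and 346 at 2 weeks. Its log2 changes from FH were thus -3.56 ± 0.50, -3.68 ± 0.51 and -2.88 ± 0.49, and the libraries of the 3 times overlap. Endothelial markers also stayed below FH after plating. Macrophage and stellate markers fell at first, but at 2 weeks stood at 9.18 to 61.6 and 39.0 to 180 CPM, which overlaps FH. The part of such cells in these results was not tested.

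**Figure D3:**
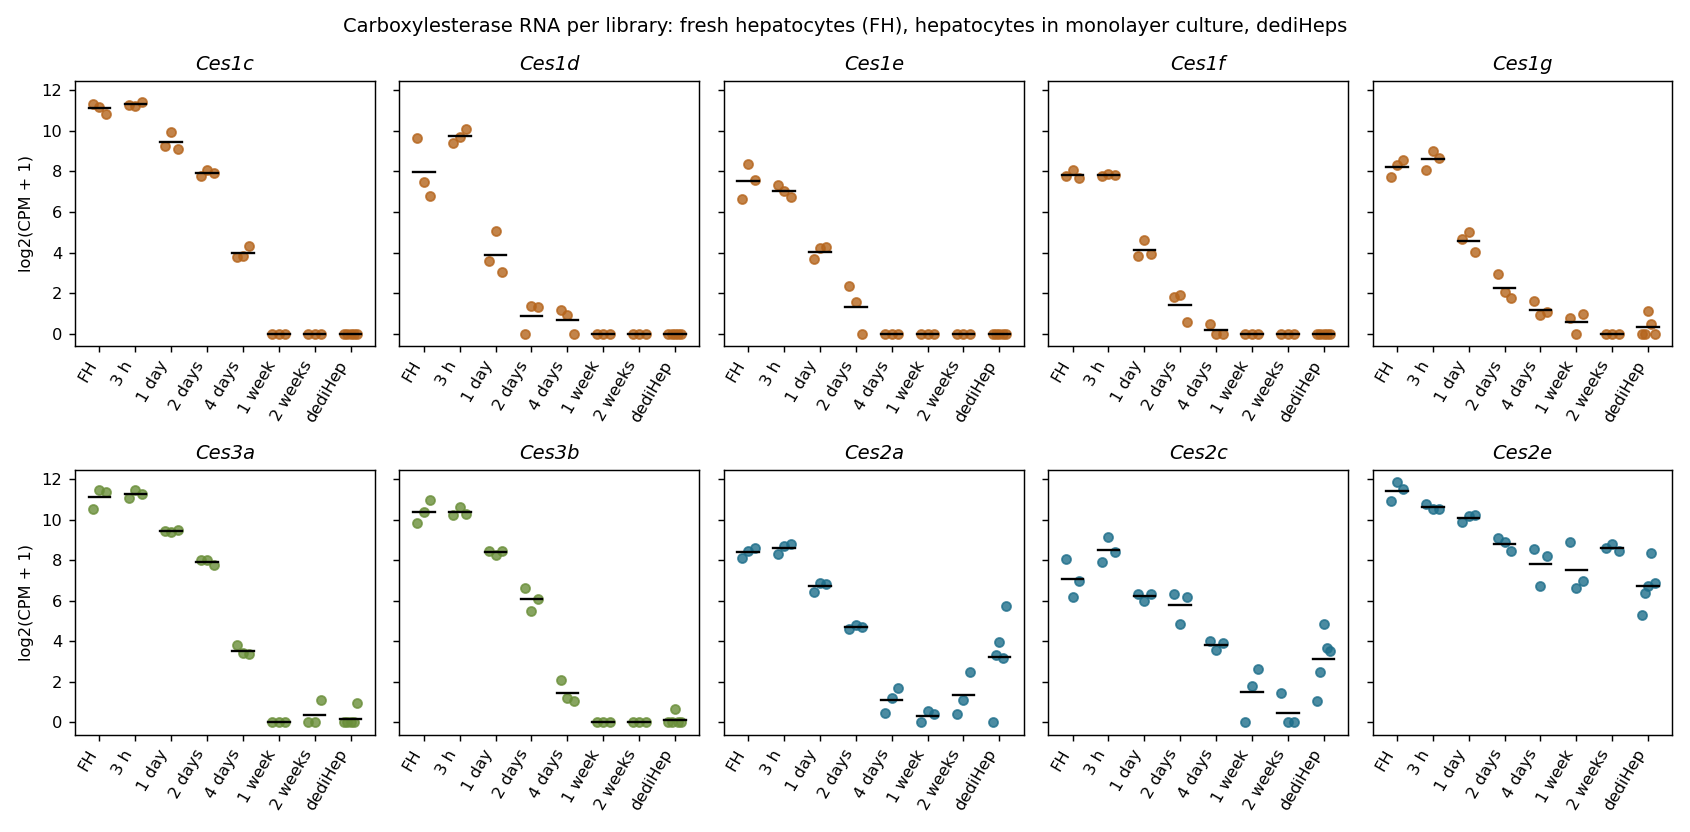
log2 of CPM + 1 of each member in every library (points; bars, means of the points) of FH, hepatocytes 3 h to 2 weeks after plating and dediHeps. Of the Ces1 and Ces3 genes, 6 have no count at 1 week, and Ces2e remains at 98.7 to 477 CPM at 1 week.

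In passaged dediHeps all 10 members were called lower than in FH, beside 25.7% of all genes called and 12.6% called lower. The Ces1 and Ces3 members passed the filter on low counts through FH alone. For these a call could only be lower, so their calls are a description. No library had a count of Ces1c, Ces1d, Ces1e or Ces1f, and these genes were at least 8612-fold, 1397-fold, 775-fold and 884-fold lower. Ces3a and Ces3b had 2 counts each over the 5 libraries and were 13524-fold (counting interval 3742 to 111699) and 8416-fold (2328 to 69517) lower. The Ces2 genes were detected and varied between cultures. Ces2e stood at 38, 83.4, 105, 328 and 117 CPM, Ces2c at 1.12, 4.52, 28.1, 11.8 and 10.4, and Ces2a at 0, 9.05, 14.8, 7.89 and 53. Their log2 changes from FH were -4.54 ± 0.59, -3.86 ± 0.73 and -4.43 ± 0.88 (adjusted p = 0.000123, 0.00157 and 0.00227). dediHep replicate 1, lowest for all 3 Ces2 genes, also had the lowest sum of hepatocyte markers of its group (1268 CPM against 2554 to 5441).

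Aggregates were compared with dediHeps to see which genes came back. Of 5 members that passed the filter on low counts, 4 were called higher and none lower (all genes called, 9.51%, and called higher, 4.39%). Ces1c and Ces1g, with 0 and 5 counts in dediHeps, passed it through aggregates alone. Ces1c rose from no count to 166, 12.6 and 121 CPM, at least 336-fold. Ces1g rose from at most 1.21 CPM to 72.7, 30.4 and 33.1 (log2 change 6.62 ± 0.74, adjusted p = 0.000526). Among the Ces2 genes, Ces2c reached 130.1, 99.5 and 77.4 CPM (3.14 ± 0.66, adjusted p = 0.0134) and Ces2e 1279, 704 and 928 (2.87 ± 0.55, adjusted p = 0.00838), each above every dediHep library. Ces2a, at 76.7, 26.5 and 31.6 CPM, overlapped dediHep replicate 5, and its change of 1.40 ± 0.92 did not pass (adjusted p = 0.307). With the shared cultures of origin as a block Ces2a was called (2.90, adjusted p = 0.0486), as it was without dediHep replicate 5 (2.44).

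The other liver-type members were at most 4.85 CPM in aggregates (Ces1d, Ces1e and Ces1f) or uneven. Ces3a was at 92.9, 3.04 and 10.2 CPM and Ces3b at 28.3, 2.61 and 8.15, so that the first aggregate library held most of both. These 5 did not pass the filter in the comparison with dediHeps, and in fits that kept more genes 8 or 9 of the 10 members were called higher. Against FH, 8 members remained called lower (all genes called, 16.6%, and called lower, 9.78%), from Ces1g at -2.84 ± 0.45 to Ces1e at -7.56 and Ces1d and Ces1f at -7.59. Ces1d, Ces1e and Ces1f passed the filter there through FH alone, which left only a lower call. Ces2c (-0.69 ± 0.48, adjusted p = 0.317) and Ces2e (-1.65 ± 0.36, adjusted p = 0.00672) were not called. The sum of hepatocyte markers in aggregates was 10335 to 15778 CPM.

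Spherical organoids from dediHeps had the lowest Ces2 sum of the 16 conditions. Its mean was 18 CPM (SD 12.5), and the Ces1 and Ces3 sum was 1.87 ± 2.00. Against dediHeps, 3 members could be tested and 2 were called lower (all genes called, 8.76%, and called lower, 4.65%). Ces2a and Ces2c passed the filter through dediHeps alone, so for them a call could only be lower. Ces2e was at 7.39, 13.9 and 25.9 CPM, below each of the 5 dediHep libraries, a log2 change of -3.10 ± 0.71 (adjusted p = 0.0174). Ces2a had 3 counts in all, 13.9-fold to 202-fold lower by its 95% counting interval, and a log2 change of -5.19 ± 1.46 (adjusted p = 0.0447). That call was lost with the cultures of origin as a block (-3.60, adjusted p = 0.142) and without dediHep-SO replicate 1 or 2 (adjusted p = 0.183 and 0.174). Ces2c, at 0, 0.496 and 5.09 CPM, overlapped dediHeps (-2.65 ± 1.15, adjusted p = 0.174).

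FIPC-SOs, grown as spheres from fetal gut, held more Ces2. Ces2e was at 733, 440.5 and 414 CPM there, Ces2c at 33.9, 33.3 and 44.9 and Ces2a at 16, 16.8 and 21.5, and all 3 were called higher in FIPC-SOs than in dediHep-SOs with no overlap (all genes called, 8.91%, and in this direction, 3.99%). Ces2a and Ces2c, with 3 and 12 counts in dediHep-SOs, passed the filter through FIPC-SOs alone. For them a call could only take this direction. The log2 changes of dediHep-SOs against FIPC-SOs were -5.12 ± 0.49 for Ces2e, -4.43 ± 0.83 for Ces2c and -5.34 ± 0.64 for Ces2a. Ces1 and Ces3 genes were at most 0.35 CPM in any FIPC-SO library. FIPC-SO replicate 3 also carried stellate and fibroblast markers at 468 CPM against 4.56 and 10.9 in the other libraries. Of the FIPC-SO libraries it was highest for Ces2a and Ces2c and lowest for Ces2e. The part of such cells was not tested.

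In dediHep-BOs, which carried the Cdx2 virus, Ces2 genes were high. Against dediHep-SOs all 5 tested members were called higher (all genes called, 11.3%, and called higher, 5.6%). Ces1c, Ces1f, Ces2a and Ces2c, with 0, 2, 3 and 12 counts in dediHep-SOs, passed the filter through dediHep-BOs alone. For these a call could only be higher, so the 5 calls are a description. Ces2e stood at 1339, 1375 and 1239.7 CPM, a log2 change of 6.44 ± 0.44 (adjusted p = 2.23e-05), Ces2c at 418, 418 and 346 (7.83 ± 0.76, adjusted p = 9.58e-05) and Ces2a at 277, 299 and 99.8 (8.95 ± 0.71, adjusted p = 4.51e-05). Ces1c reached 11.6, 12.8 and 28.4 CPM from no count, at least 43.7-fold, and Ces1f 19.9, 8.38 and 10.9 CPM from 2 counts. The ratio of Ces1f was 46.6 (counting interval 12.5 to 391) and that of Ces2a, from 3 counts, 537 (184 to 2609). Ces1d at 56.3, 13.2 and 4.18 CPM, Ces1e at 4.37, 3.97 and 2.92 and Ces1g at 6.31, 1.76 and 12.1 did not pass the filter, and Ces3a and Ces3b had at most 0.485 CPM. Ces3b had no count in dediHep-BOs, ISC-BOs or FIPC-SOs.

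The same 5 members were called higher in dediHep-BOs than in dediHeps (all genes called, 14.2%, and called higher, 6.17%), with log2 changes of 3.32 ± 0.53 for Ces2e, 5.11 ± 0.65 for Ces2c and 3.75 ± 0.89 for Ces2a. Ces1c and Ces1f, without a count in dediHeps, passed the filter here through dediHep-BOs alone. Both comparisons share the dediHep-BO libraries. Intestinal epithelial markers were at 3184 to 4050 CPM in dediHep-BOs against 1080.0 to 1304 in dediHep-SOs, and hepatocyte markers at 1281 to 1868 against 651 to 757. The same hepatocyte list stood at 1463 to 1944 CPM in ISC-BOs, which come from crypts. Replicates 1 and 2 of dediHep-BOs held stellate and fibroblast markers at 280.4 and 292 CPM and replicate 3 at 4.18. All 3 Ces2 genes were lowest in replicate 3, Ces2a at 99.8 CPM against 277 and 299. The calls of the 3 Ces2 genes held without any single library, which cannot remove both libraries with these markers. The part of such cells was not tested.

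**Figure D4:**
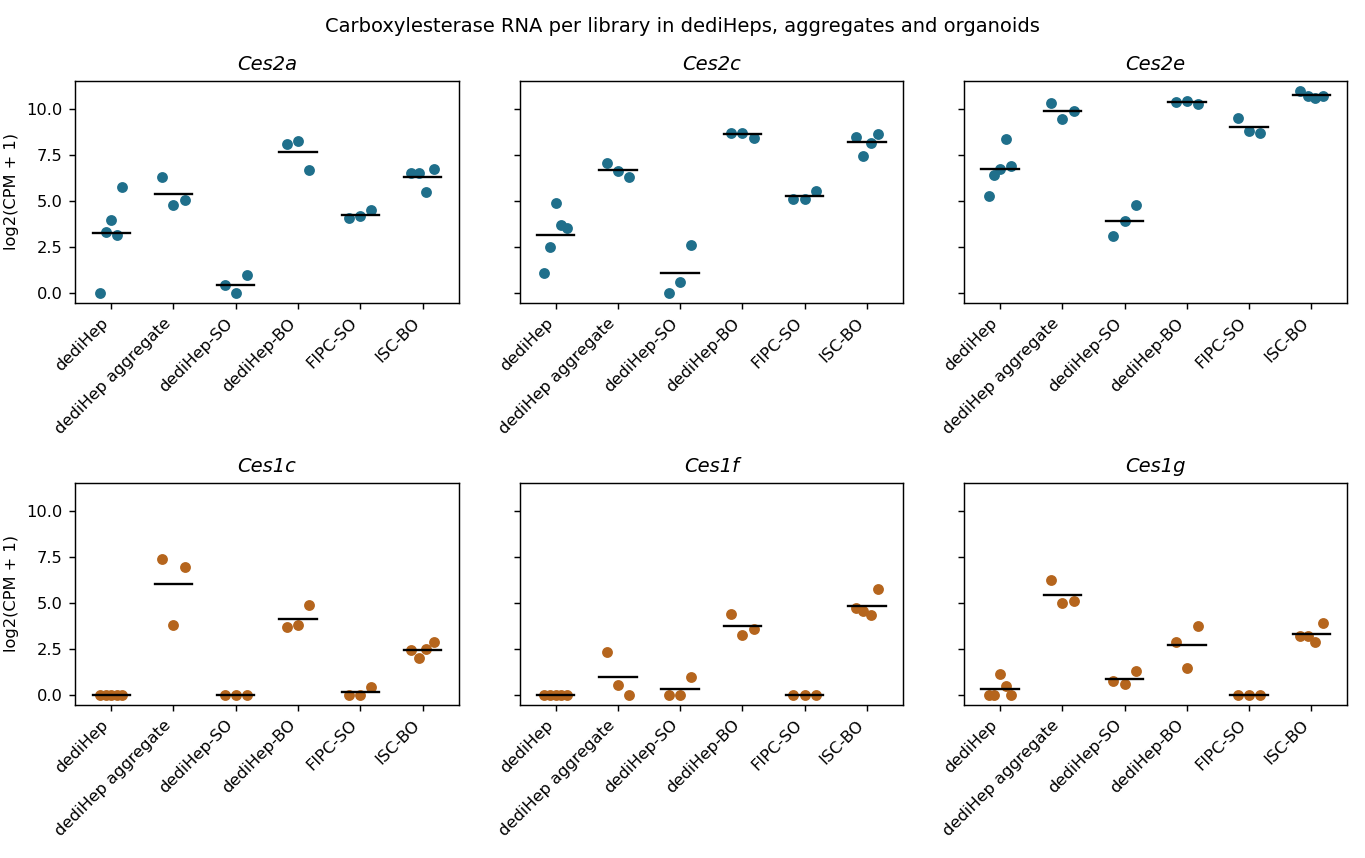
log2 of CPM + 1 of 6 members in every library (points; bars, means of the points) of dediHeps, aggregates and organoids. The 3 Ces2 genes are lowest in dediHep-SOs and high in dediHep-BOs and ISC-BOs, and Ces1c and Ces1g are highest in aggregates.

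dediHep-BOs were then set against organoids of adult crypts. Of 8 members tested, 1 was called (all genes called, 3.05%, and called lower, 1.71%). Ces1e was at 4.37, 3.97 and 2.92 CPM against 7.2 to 22.6 in the 4 ISC-BO libraries, a log2 change of -2.07 ± 0.46 (adjusted p = 0.0264), and it dropped under the fold or the adjusted p without dediHep-BO replicate 2 or 3 or ISC-BO replicate 2 or 4 (-1.87 to -2.11), as it did with the replicate number as a block (-1.81). Ces1c, at 4.33, 2.93, 4.66 and 6.12 CPM in ISC-BOs, was higher in dediHep-BOs by 1.99 ± 0.42 (adjusted p = 0.0204), just under the fold, and passed it in 7 alternatives, among them the replicate block (2.11). For Ces2a the difference was 1.47 ± 0.39 (adjusted p = 0.0503), for Ces2c 0.42 ± 0.26 (0.357) and for Ces2e -0.35 ± 0.14 (0.155). With the UMI correction the log2 change of Ces2e was -1.04 (adjusted p = 0.00988).

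ISC-BOs against FIPC-SOs gave the same contrast of shape in intestinal cells, with age and medium (Wnt3a and CHIR99021) as further differences. Here 7 of 8 tested members were called higher in ISC-BOs (all genes called, 6.62%, and called higher, 4%). The Ces1 members passed the filter through ISC-BOs alone. Ces1f rose from no count to 24.9, 22.6, 19.1 and 52.9 CPM, at least 85.1-fold, and Ces1g from no count to 8.11, 7.94, 6.36 and 14, at least 25.9-fold. Ces2c at 348, 175, 286 and 396 CPM was higher by 2.97 ± 0.33 and Ces2a at 91.4, 90.7, 44.5 and 105 by 2.16 ± 0.35, a value below the fold with library totals alone (1.99) and with the replicate block (1.96). Ces2e, at 1999, 1647, 1560.0 and 1679 CPM, was higher by 1.67 ± 0.22 (adjusted p = 0.000426), and by 2.86 with the UMI correction, which made it called. Ces1c, Ces1d and Ces1e had 1 or 2 counts in FIPC-SOs, with ratios of 38.4 (counting interval 6.51 to 1555), 141 (24.9 to 5613) and 69.6 (18.9 to 580.3). With genes at 0 set to their bounds the median of the 8 was 4.72.

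Set against FH, ISC-BOs had 8 members called lower (all genes called, 28.1%, and called lower, 13.3%), and the 2 others were Ces2c (0.92 ± 0.45, adjusted p = 0.116) and Ces2e (-0.78 ± 0.25, adjusted p = 0.0243). The direction for Ces2e was not firm, as it was 0.05 with the UMI correction and 0.04 with library totals alone, a scaling that moved the median of all genes by up to 0.88 in a comparison. Ces2a (-2.08 ± 0.34) lay near the fold, and 5 alternatives took it above -2, among them leaving out FH replicate 3 (-1.98) or ISC-BO replicate 3 (-1.82). Ces3b was at least 4251-fold lower and the log2 change of Ces1c was -8.98 ± 0.37. Ces3a and Ces3b passed the filter through FH alone, which left only a lower call.

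Whether the budding change differed between lineages was tested as a difference of differences, (dediHep-BO minus dediHep-SO) minus (ISC-BO minus FIPC-SO). The Cdx2 virus, age and medium change along with shape in these groups, and their parts cannot be told apart. All 3 Ces2 genes changed more in the dediHep lineage, and 4 of 8 tested members were called in all (all genes called, 9.45%). For Ces2e the log2 changes were 6.43 and 1.69, a difference of 4.74 ± 0.45 (adjusted p = 3.19e-05). The difference was 6.77 ± 0.80 for Ces2a (0.000134) and 4.83 ± 0.80 for Ces2c (0.00176). These 2 genes had 3 and 12 counts in dediHep-SOs. With 1 library left out their differences ran from 6.31 to 7.68 and from 4.10 to 7.65. The levels of Ces2e were 15.7 and 1318 CPM in the spherical and budding organoids of the dediHep lineage, and 529 and 1721 CPM in those of the intestine. The budding levels are low readings by the UMI limit given above. Ces1g was the fourth, with a difference of -4.49 ± 1.60 (adjusted p = 0.0887), which rests on FIPC-SOs without a count and was lost in 9 of 13 fits that left out 1 library.

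**Figure D5:**
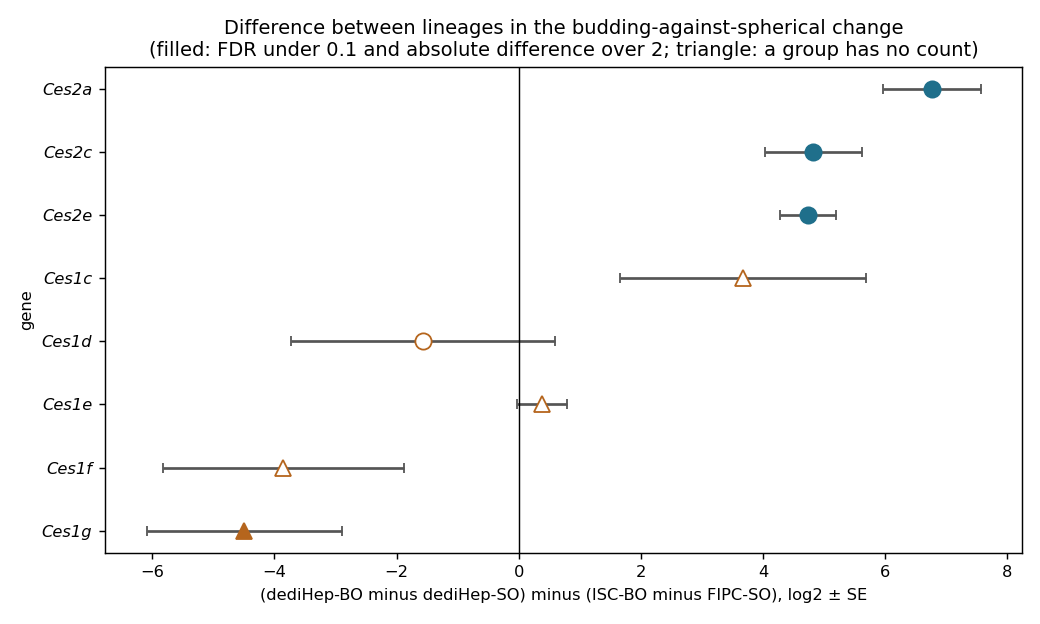
Difference of log2 fold changes, (dediHep-BO minus dediHep-SO) minus (ISC-BO minus FIPC-SO), with its SE, for 8 members (filled, called; triangles, a group has no count and the fitted value depends on the small count added by the fit). Ces2a, Ces2c and Ces2e lie at 6.77, 4.83 and 4.74, all above 0.

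CLiPs, made with small molecules, held Ces2e and little of the other members. Of 3 members tested against dediHeps, none was called by edgeR or DESeq2, where 3.04% of all genes were called, and 0 had an unadjusted p under 0.05. Ces2e was at 137, 59.3 and 972 CPM (log2 change 1.59 ± 0.85, adjusted p = 0.374), and without replicate 3 its change was -0.43. That library also had 9019 CPM of hepatocyte markers against 2373 and 2062, 15.4 CPM of Ces2a against 0.493 and 0.21, and the only counts of Ces1c and Ces1g. Against FH all 10 members were called lower (all genes called, 24.5%, and called lower, 11.4%), with Ces2e the least, at -2.82 ± 0.97 (adjusted p = 0.0573), a call that was lost without CLiP replicate 1 or FH replicate 2 or 3 (adjusted p = 0.182, 0.157 and 0.109). The Ces1 and Ces3 members passed the filter through FH alone, so for them a call could only be lower. Ces3a was at least 6915-fold lower.

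Verteporfin was tested on hepatocytes at 7 days. Of 2 members tested none was called by edgeR or DESeq2, beside 0.269% of all genes, and 1 had an unadjusted p under 0.05. Ces2c was at 36.7 and 46.4 CPM with verteporfin and at 7.24 and 16.2 with DMSO, without overlap, a log2 change of 1.83 ± 0.40 with an unadjusted p of 0.00107 in edgeR and an adjusted p of 0.169. Without DMSO replicate 2 it was called (2.53, adjusted p = 0.00312), a fit in which 1 DMSO library is assumed to vary like the others. Ces2e, at 411 and 356 CPM against 374 and 277, changed by 0.27 ± 0.24 (adjusted p = 0.783). The remaining members were at most 3.29 CPM in both groups.

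Of the other carboxylesterase genes, 10 in the table, 4 had enough counts to be tested. Ces2d-ps, the pseudogene next to Ces2c, had means of 178 CPM in FH, 2.32 in dediHep-SOs and 486 in dediHep-BOs, and Ces2c had fewer counts than Ces2d-ps in 30 of the 34 libraries with at least 20 counts of both (ratio 0.631 to 1.45). There were 4.34 counts of Ces1c for each of Ces1b as the median over 14 libraries. Ces2g had means of 72.0 CPM in FH and 5.48 to 11.1 between 1 day and 2 weeks, and was called higher in aggregates than in dediHeps (log2 change 3.21), in dediHep-BOs than in dediHep-SOs (2.24) and in ISC-BOs than in FIPC-SOs (4.46). In dediHep-SOs Ces2g did not follow the 3 Ces2 members, at 8.58 CPM against 8.24 in dediHeps (0.07).

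A list of 51 genes with related roles (other esterases and lipases, lipoprotein and lipid droplet partners, regulators of drug metabolism, egasyn's partner and ER retrieval receptors) gave the setting. Beside each count stands the share called of the list and of all genes. In dediHeps 20 of 45 tested were called lower than in FH and 2 higher (48.9% of the list, 25.7% of all genes), with a median of -1.53, among them Aadac (arylacetamide deacetylase, a fellow ER esterase, -10.35), Mgll (monoacylglycerol lipase, -9.12) and Nr1i3 (the drug receptor CAR, -8.81). In aggregates against dediHeps 11 of 41 were called higher and 1 lower (29.3% and 9.51%), led by Aadac (7.97), Rxra (2.53) and Lpl (2.94). In dediHep-BOs against dediHep-SOs 10 of 39 were called higher and 2 lower (30.8% and 11.3%), led by Aadac, Mttp (which loads lipid onto lipoproteins, 6.57) and Bche (butyrylcholinesterase, 5.14). Against dediHeps the calls in dediHep-BOs were split, with 6 of 42 higher and 6 lower (28.6% and 14.2%) and a median of -0.20. Against ISC-BOs 1 of 42 was called (2.38% and 3.05%), Clps (the cofactor of pancreatic lipase, -3.24). In the time course 20, 19, 24, 22 and 24 of 46 were called lower at 1, 2, 4, 7 and 14 days, with 1 or 2 higher each time (45.7% to 56.5% of the list and 17.4% to 29.5% of all genes). In ISC-BOs 11 of 43 were called higher and 1 lower than in FIPC-SOs (27.9% and 6.62%), and 4 and 20 of 47 than in FH (51.1% and 28.1%). In dediHep-SOs 6 of 38 were called lower than in dediHeps, led by Lpl (lipoprotein lipase, -6.52), with 15.8% of the list and 8.76% of all genes called, and 3 higher and 7 lower of 39 than in FIPC-SOs (25.6% and 8.91%). In aggregates 2 of 43 were called higher and 7 lower than in FH (20.9% and 16.6%). In CLiPs 2 of 43 were called higher and 16 lower than in FH (41.9% and 24.5%), and 2 of 39 lower than in dediHeps (5.13% and 3.04%). At 3 h 2 of 46 were called higher and 2 lower (8.7% and 6.91%), the latter Foxa2 (-2.76) and Ppara (-2.49), and with verteporfin none was called of 37.

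Genes whose pattern over the 16 condition means was most like that of a member were found among 12768 genes outside the family by Pearson's r of log2(CPM + 1), as a description in which the points share libraries. For Ces2a they were Fabp1 (0.968), Cyp2c68 (0.940) and Cyp4f14 (0.939), and for Ces2c Mttp (0.937), Otc (0.933) and Macrod2 (0.925). Ces2e was less well matched, with Nags (0.891), Mttp (0.878) and Cps1 (0.875). For Ces1c they were Gm10499 (0.966), Cyp2d40 (0.954) and Hsd11b1 (0.951), for Ces3a Mup21 (0.983), Hsd11b1 (0.978) and C8b (0.973), and for Ces3b Gm20319 (0.983), Pglyrp2 (0.983) and Cyp2c37 (0.981). Ces1e and Ces1f shared Ugt2a3 (0.979 and 0.961) and Slco2b1 (0.961 and 0.971), and Ces1e was also like Odf3b (0.955). Ces1g was most like Slc47a1 (0.979), Cyp2d12 (0.977) and Hsd17b6 (0.975), and Ces1d like Cyp3a63-ps (0.968), Cyp3a41b (0.956) and Cyp3a25 (0.954). Among the members themselves Ces3a and Ces3b were closest (0.991), and Ces3b and Ces2c least alike (0.535).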

How the data were processed

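RNA of 49 libraries from 16 conditions was measured by CEL-Seq2 on an Illumina NovaSeq. The authors deposited raw UMI counts per Ensembl gene, whole numbers without normalization, made with the celseq2 pipeline. The submitters' processing notes name bcl2fastq 2.20, Bowtie2 2.3.1, HTSeq 0.6.0 and GRCm38. Names came from GENCODE M21 (45143 of 46078 identifiers), and 0 columns were left out.

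From the counts, edgeR 4.0.16 in R 4.3.3 was run with TMM factors, filterByExpr (minimum count 10, minimum total 15) and the quasi-likelihood F test, with Benjamini-Hochberg adjustment over all genes tested. Members with few or no counts in a group passed this filter through other groups, which leaves only that direction for a call. FH and the 6 times were fitted together, the other 13 comparisons on their own libraries, and the lineage difference on 4 groups. The adjusted p threshold of 0.1 and the log2 fold change of 2 are those of the study. The SE of a log2 fold change is its size over the root of F. Because each fit has its own scale, CPM in the text come from a scale over all libraries. Ratios from 1 to 3 counts have exact binomial 95% intervals, and bounds and intervals cover counting error only. The 54 replicate pairs differed beyond counting noise (chi-square per degree of freedom 6.29 to 74.5). Nothing in the labels of most groups says that libraries came from separate animals, so p-values measure the spread between these samples.

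The members and lists were chosen with earlier results of these data known. Named were all 10 members in every comparison, of the 51-gene list at most 6 called genes with the smallest p per comparison, and the 3 genes most like each member with at least 10 CPM in a condition, of which 1 is not reported here. dediHeps, aggregates and dediHep-SOs carry names of shared cultures. Same-culture deviations correlated at 0.179 to 0.357 for aggregates and dediHeps, and -0.499 to 0.0445 for dediHep-SOs and dediHeps. Alternatives were RLE scaling, library totals alone, other filters, DESeq2 1.42.0, a single fit of all libraries, a UMI correction, other thresholds, a block and leaving out each library. The scripts were tested on simulated counts. Sequences were read and aligned with Python 3.11.15 and Biopython 1.88.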

Additional observations from a re-analysis of the deposited data

Results flagged for a closer look

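Dixon's criterion, which chance alone meets in about 1 of 20 sets, was applied to those of 24 sets of 4 or 5 libraries that were not wholly at 0. By it, 4 sets held a library far from the others, all of them dediHeps. The rate of 1 in 20 does not hold for sets that are mostly at 0. Ces2a was at 53.0 CPM in dediHep replicate 5, with 0 to 14.8 in the other libraries, and Ces2e at 328 CPM in replicate 4, with 38.0 to 117 in the others. Ces3a in replicate 5 (0.947 CPM) and Ces3b in replicate 3 (0.604 CPM) rest on 2 counts each, beside libraries without any. In such a set the only library with a count meets the criterion whatever its value. The dediHep libraries high for Ces2a and Ces2e also had the highest sums of hepatocyte markers in their group, 5441 and 4814 CPM, and the part of this in the result was not tested.

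The change from spherical to budding organoids differed between the dediHep and the intestinal lineage, by edgeR's quasi-likelihood test of the difference itself, for 4 members. On the log2 scale it was 6.77 for Ces2a, 4.83 for Ces2c and 4.74 for Ces2e. For Ces1g the difference was -4.49, fitted with no count in FIPC-SOs, where its value depends on the small count added by the fit.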

How the results depend on the processing

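Of the gene-level log2 fold changes refitted with another setting, 1307 kept their direction and side of the threshold, 13 passed it, 11 no longer did and 3 reversed, and with 1 library left out the counts were 1886, 11, 21 and 8. A change of sign was seen for Ces1f at 3 h against FH (0.0091 with genes kept at 0.5 CPM in a library, and -0.14 to 0.10 with a library left out), Ces3a (-0.18 to 0.25) and Ces3b (-0.35 to 0.23) at 3 h, Ces2e in ISC-BOs against FH (0.053 with the UMI correction and 0.039 with library totals alone), Ces2e in CLiPs against dediHeps (-0.43 without CLiP replicate 3, to 2.22), Ces1d (-0.92 to 1.55) and Ces1g (-1.16 to 0.057) in dediHep-BOs against ISC-BOs, and the lineage difference of Ces1d (-3.23 to 0.050), none of them called. Library totals alone as the scale moved the median of all genes by -0.218 to 0.883 in a comparison, RLE by -0.137 to 0.0426. The number of called members moved by over 1.5 times in these cases. A single fit of all 49 libraries gave 2 for CLiPs against dediHeps. The thresholds of 0.05 and a log2 fold change of 1 gave 9 at 1 day and 2 for dediHep-BOs against ISC-BOs, where library totals alone also gave 2. Genes kept at 0.5 CPM, no filter and the single fit each gave 8 for dediHep-BOs against dediHeps and 8 against dediHep-SOs, and 8, 9 and 9 for aggregates against dediHeps, since more members were then tested. With the replicate block the count was 1 for dediHep-SOs against dediHeps, and no other count moved that far under the block or pairing. With a library left out the counts ran from 0 to 1 at 3 h (1 without FH replicate 1), from 0 to 1 for verteporfin, from 0 to 2 for dediHep-BOs against ISC-BOs (0 without ISC-BO replicate 2 or dediHep-BO replicate 3, 2 without ISC-BO replicate 3 or dediHep-BO replicate 1) and from 1 to 3 for dediHep-SOs against dediHeps (1 without dediHep-SO replicate 1 or 2, 3 without dediHep replicate 1 or dediHep-SO replicate 3). The cause was not tested. Numbers shared between dediHeps and dediHep-BOs, which the labels do not tie to cultures, correlated at 0.161 to 0.193, and the block left 5 calls. Depth limits levels under about 3 counts. The UMI length limits Ces2e most in budding organoids, and it also lowers the counts of the high members in fresh and newly plated hepatocytes. Correction factors of the counts there reached 1.71 for Ces2e in FH, and 1.57 for Ces3a and 1.49 for Ces1c at 3 h. Library totals rise with the correction as well, so CPM need not rise. At 3 h the mean of Ces1c went from 2525 to 2392 CPM and that of Ces3a from 2473 to 2351. In FH the mean of Ces2e went from 2851 to 3329 CPM.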
